A study of Homo sapiens with 6 samples.

Results

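Messenger RNA of genes for fatty acid synthesis, elongation and lipid storage was compared in 786-O, a human cell line established from renal cell carcinoma, after RNA interference against ERCC6L, a DNA translocase found on the ultrafine bridges between separating chromatids. A list of 42 genes was drawn up by function, and its members are the probe sets annotated to 1 gene symbol from that list. Of the 42 genes, 41 were measured, on 113 of the 44988 probe sets with 1 symbol, out of 18132 genes in all. ACSL3 was not analysed here. The list was drawn up with earlier results of these data known, and no expression value entered the rule.

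There were 3 Affymetrix arrays of cells carrying a short hairpin RNA against ERCC6L (shERCC6L) and 3 of cells carrying a negative control hairpin (shNC), all of the same line grown in RPMI medium with fetal bovine serum. Every sample carries one treatment text, which mentions lentivirus with the ERCC6L hairpin and no other. The labels do not give the number of hairpins, whether the cells were a pool or a clone, the time after infection, or whether replicates were separate cultures, so the p-values measure the spread between these arrays, which may be technical. The ERCC6L probe set read 97.6, 97.5 and 97.8 on the shERCC6L arrays, against 239.9, 244.3 and 261 on the shNC arrays, which left 39.3% of the control signal. In such bulk RNA, fewer cells expressing a gene and less RNA per cell cannot be told apart. Correlations between arrays were 0.9987 to 0.9991 within groups and 0.9934 to 0.9942 across groups.

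Fatty acids are built in the cytosol from acetyl-CoA, which ACLY makes from citrate and ACSS2 from acetate. Acetyl-CoA carboxylases (ACACA, ACACB) convert it to malonyl-CoA, and fatty acid synthase (FASN) assembles palmitate. In the endoplasmic reticulum, elongases of the ELOVL family lengthen the chain in a cycle completed by HSD17B12, HACD3 and TECR, while SCD and the FADS desaturases add double bonds. Acyl chains are esterified to triglyceride and kept in lipid droplets coated by perilipins, or imported into mitochondria by the carnitine palmitoyltransferases and oxidised. Clear cell renal carcinoma takes its name from the cytoplasm left pale by dissolved lipid and glycogen, and 786-O cells lack functional VHL, so that hypoxia-inducible factor signalling is constitutively on.

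The largest change was the rise of ELOVL6. The elongase gene ELOVL6 was 2.03-fold higher in shERCC6L, ELOVL1 1.31-fold and ELOVL2 1.29-fold, whereas the droplet coat gene PLIN2 was 1.23-fold, the phosphatase gene LPIN1 1.20-fold and the lipase gene MGLL 1.19-fold lower. The mitochondrial import gene CPT1A was 1.30-fold higher, though only 1 of its 2 probe sets was called. Other members moved by less, and ELOVL6 alone among the 41 reached 2-fold. Fold changes are on the log2(signal + 16) scale, for the brightest probe set of each gene, and understate the change of dim genes.

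By limma with Benjamini-Hochberg adjustment over all 18132 genes, 13 of the 41 members were higher in shERCC6L, 5 were lower and 23 did not pass an adjusted p of 0.05. The share of members called was thus 43.9%, against 31.6% of all genes tested. By direction, 31.7% of members were higher, against 18.2% of all genes, and 12.2% were lower, against 13.4%. Signal level matters to that reading, because 34 of the 41 members lay at or above the median level of all genes (6.68 on the log2 scale) and brighter genes were called more often. Within the genes that reached that level, adjusted among themselves, 20 of the 34 members passed (58.8%), 14 higher and 6 lower, against 58.3% of the 9066 genes. The median log2 fold change of these 34 members was 0.031, beside 0.036 for all genes at that level. As a set, the members were therefore called at the rate of other genes of like level. Arrays of the groups did not overlap for 26 of the 41 members (63.4%), 18 higher and 8 lower, against 43.4% of all genes, 23.1% higher and 20.3% lower. Among the 34 brighter members 22 did not overlap (64.7%), against 64.5% of genes at that level.

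**Figure D1:**
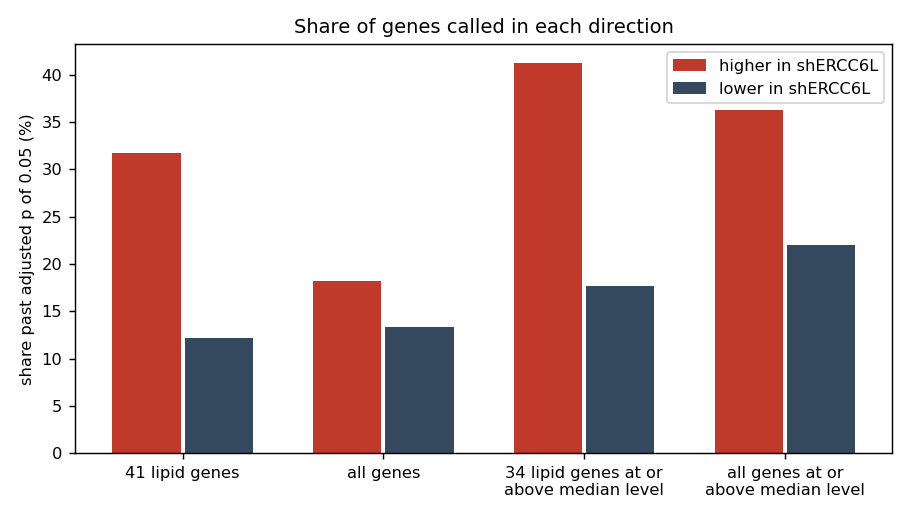
Share of genes past an adjusted p of 0.05 (y axis, percent), higher (red) or lower (dark) in shERCC6L, for the 41 lipid genes, all genes, the 34 lipid genes at or above the median level and all genes at or above it. The lipid genes stand above all genes for rises (31.7% and 18.2%), and lie closer to them once dimmer genes are left out (41.2% and 36.3%).

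**Figure D2:**
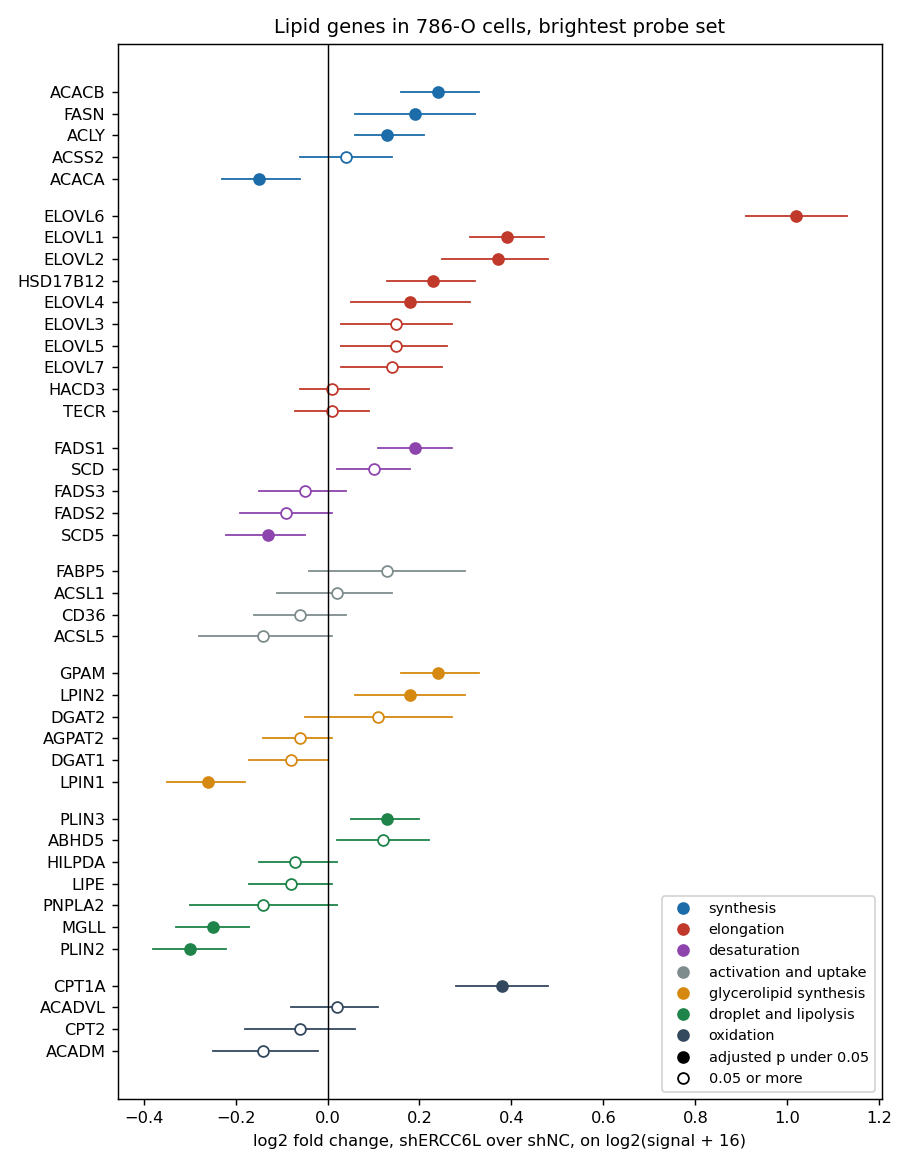
Log2 fold change of each lipid gene, shERCC6L over shNC, on the log2(signal + 16) scale (x axis), on its brightest probe set, grouped by role. Points are limma estimates from 3 arrays per group, bars are 95% confidence intervals, and filled points passed an adjusted p of 0.05. ELOVL6 stands apart at 1.02, and PLIN2, at -0.30, is the lowest.

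Among the genes that supply the carbon and build palmitate, 3 of 5 were higher, 1 was lower and 1 did not pass. Over all genes 18.2% were higher and 13.4% lower, and at or above the median level 36.3% and 22.0%. ACLY, ATP citrate lyase, read 3609, 3578 and 3702 on the shERCC6L arrays and 3309, 3354 and 3276 on the shNC arrays. The groups did not overlap, but the difference was small, at 0.13 ± 0.03 on the log2 scale (SE, n = 3 per group; limma adjusted p = 0.014). It no longer passed without shNC replicate 3 (adjusted p = 0.053; range over the alternatives 0.00076 to 0.053).

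FASN, fatty acid synthase, read 231, 241 and 215 on the shERCC6L arrays, against 212, 184 and 201 on the shNC arrays, a log2 fold change of 0.19 ± 0.06 (SE; limma adjusted p = 0.03). The lowest shERCC6L array lay just above the highest shNC array. The call ended in 7 of 16 alternatives, among them those without shERCC6L replicate 1 (log2 fold change 0.18) or 2 (0.15) and without shNC replicate 2 (0.14) or 3 (0.20), and its adjusted p ran from 0.013 to 0.15.

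The 2 acetyl-CoA carboxylase genes moved apart. ACACA, the cytosolic isoform that feeds fatty acid synthase, read 466, 481 and 464 on the shERCC6L arrays, against 522, 507 and 536 on the shNC arrays, and fell by 0.15 on the log2 scale (SE 0.04; limma adjusted p = 0.012). ACACB, the isoform at the mitochondrial surface, was higher, with mean signals of 66.0 ± 2.16 in shERCC6L and 53.4 ± 1.85 in shNC (SD, n = 3 each; log2 fold change 0.24, limma adjusted p = 0.00098). Each rested on 1 of 3 probe sets. With the probe sets of a gene averaged, the changes were -0.05 for ACACA (limma adjusted p = 0.23; range over its alternatives 0.0054 to 0.23) and 0.08 for ACACB (limma adjusted p = 0.058; range 0.0007 to 0.058). A pseudocount of 64 also lowered the ACACB value, to 0.15, and the ACACA call was lost without shNC replicate 3 (adjusted p = 0.052). ACSS2, acetyl-CoA synthetase, averaged 129 ± 7.54 in shERCC6L and 125 ± 2.77 in shNC and did not pass, with a 95% interval of -0.06 to 0.14 for its log2 fold change.

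In chain elongation, all 10 genes had log2 fold changes above 0. HACD3 and TECR were at only 0.01, and both fell below 0 in some alternatives, quantile normalization among them. Log2 fold changes above 0 were found for 45.2% of all genes and for 57.3% of those that reached the median level. Of the 10 genes 5 passed as higher, against 18.2% of all genes, and of the 8 at or above the median level 6 passed as higher when adjusted at that level, against 36.3%. Counting both directions, those 6 of 8 stand against 58.3% of genes at that level. None was lower by limma, at the adjusted threshold or at an unadjusted p under 0.05. ELOVL6, which extends palmitate towards stearate, read 891, 922 and 956 on the shERCC6L arrays, against 436, 477 and 428 on the shNC arrays. Every shERCC6L array was well above every shNC array, and the log2 fold change was 1.02 ± 0.05 (SE; limma adjusted p = 1e-06). All 3 ELOVL6 probe sets rose, by 1.02, 1.04 and 0.69, and the change lay between 0.92 and 1.07 in the 16 alternatives.

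ELOVL1, an elongase of saturated and monounsaturated very long chains, read 945, 1000.3 and 950 on the shERCC6L arrays, against 746, 721 and 732 on the shNC arrays (log2 fold change 0.39 ± 0.04, SE; limma adjusted p = 5.3e-05). Both of its probe sets rose by nearly the same amount, 0.39 and 0.41. ELOVL2, which lengthens polyunsaturated chains, read 169, 187 and 167 on the shERCC6L arrays, against 136, 126 and 133 on the shNC arrays, a log2 fold change of 0.37 ± 0.05 (SE; limma adjusted p = 0.00045). It has 1 probe set, and no array of one group reached the range of the other.

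The 4 other elongases changed less. ELOVL4, known for the very long chains of retina, skin and brain, passed at 0.18 (limma adjusted p = 0.041), with mean signals of 36.1 ± 2.53 in shERCC6L and 30.0 ± 3.34 in shNC. This brightest probe set lost its call in 7 of 15 alternatives, among them those without shERCC6L replicate 1 or 2 or shNC replicate 1 or 3 (log2 fold changes of 0.18, 0.15, 0.12 and 0.19). A pseudocount of 64 also ended it and gave 0.09 (limma adjusted p = 0.075; range over its alternatives 0.00023 to 0.18). All 3 ELOVL4 probe sets were called when every probe set was tested, the largest at 0.38. ELOVL3, ELOVL5 and ELOVL7 had log2 fold changes of 0.15, 0.15 and 0.14, with limma adjusted p-values of 0.067, 0.051 and 0.064, and did not pass on their brightest probe sets, although each passed in 2 to 4 alternatives. A second probe set of ELOVL5 and one of ELOVL7 did pass, at 0.23 and 0.25.

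Counted by probe set, the 7 elongase genes had 15, and all 15 lay above 0. Of these, 11 were called higher and 0 lower, against 17.0% higher among all 44988 probe sets. The shERCC6L arrays lay above the shNC arrays without overlap for 14 of the 15, against 22.5% of all probe sets. Of the 10 elongase probe sets at or above the median level of genes, 8 were called higher, against 31.7% of the 19451 probe sets at that level, and all 10 were without overlap, against 39.5%. Probe sets of one gene measure the same RNA on the same arrays and are not independent of each other.

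The 3 other enzymes of the elongation cycle differed among themselves. HSD17B12, the ketoacyl-CoA reductase, averaged 1031 ± 31.3 in shERCC6L and 880 ± 41 in shNC and was higher, at 0.23 (limma adjusted p = 0.0034), with 2 of its 3 probe sets called. HACD3, a dehydratase, had mean signals of 1530.2 ± 36.9 in shERCC6L and 1517 ± 12.2 in shNC and did not pass, with a 95% interval of -0.06 to 0.09 on the log2 scale. TECR, the enoyl-CoA reductase that ends the cycle, averaged 1584 ± 31.6 in shERCC6L and 1573 ± 32.8 in shNC, with an interval of -0.07 to 0.09. Both log2 fold changes were 0.01, and with quantile normalization they were -0.02 for HACD3 and -0.03 for TECR.

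**Figure D3:**
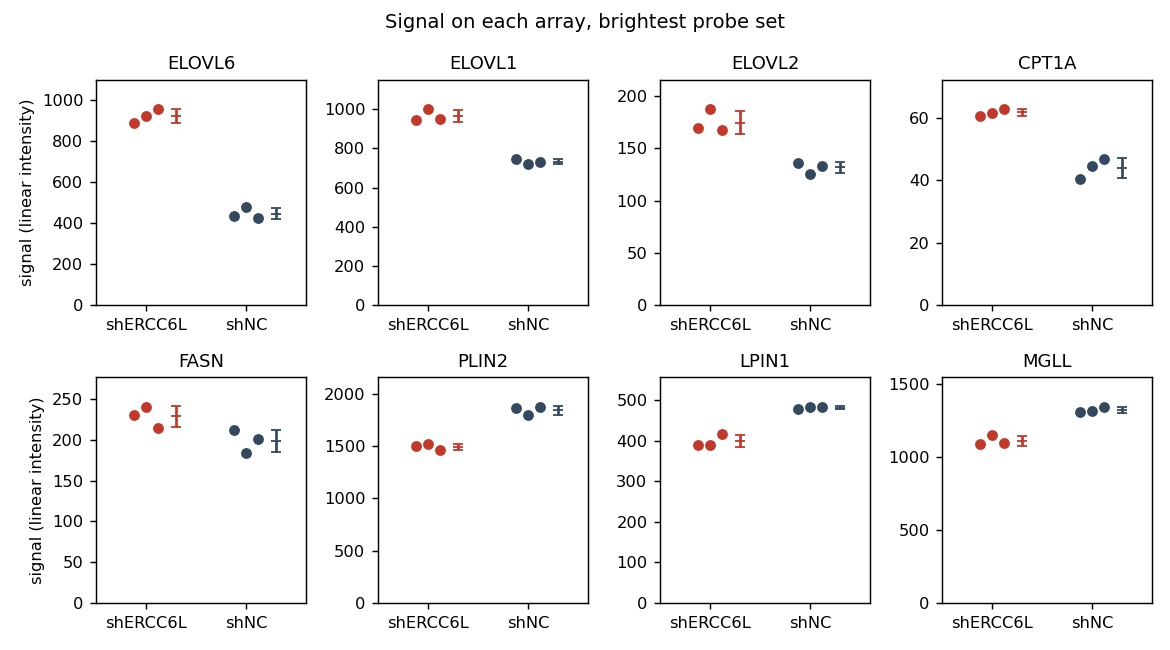
Signal on each array (y axis, linear intensity from 0) for the brightest probe sets of 8 genes, with the 3 shERCC6L arrays on the left and the 3 shNC arrays on the right. Bars give the mean ± SD. ELOVL6, ELOVL1, ELOVL2, CPT1A and FASN lie higher and PLIN2, LPIN1 and MGLL lower on the shERCC6L arrays, with no overlap in any panel and the narrowest gap for FASN.

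The DNA just before the start sites of the 3 elongase genes that changed most, and of PLIN2, the member that fell most, is shown because these genes moved in opposite directions. Each run holds the 250 bases before the start in the RefSeq table of GRCh38.p14, read 5′ to 3′ on the gene's strand, which is the minus strand for all 4. Capitals mark ACGTG or GCGTG on either strand, the core letters of the element that hypoxia-inducible factors bind. ELOVL6 lies at chr4:110198616-110198865, ELOVL1 at chr1:43368012-43368261, ELOVL2 at chr6:11044306-11044555 and PLIN2 at chr9:19127493-19127742.
ELOVL6: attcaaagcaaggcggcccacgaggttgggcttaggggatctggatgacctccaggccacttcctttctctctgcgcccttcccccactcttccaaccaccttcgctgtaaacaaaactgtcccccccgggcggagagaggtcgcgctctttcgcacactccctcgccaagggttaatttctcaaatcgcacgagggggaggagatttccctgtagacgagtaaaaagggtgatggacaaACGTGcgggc
ELOVL1: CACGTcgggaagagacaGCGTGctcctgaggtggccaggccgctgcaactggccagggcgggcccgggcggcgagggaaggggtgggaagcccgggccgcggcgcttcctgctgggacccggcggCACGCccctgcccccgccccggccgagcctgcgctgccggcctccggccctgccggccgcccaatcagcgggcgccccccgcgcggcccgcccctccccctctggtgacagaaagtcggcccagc
ELOVL2: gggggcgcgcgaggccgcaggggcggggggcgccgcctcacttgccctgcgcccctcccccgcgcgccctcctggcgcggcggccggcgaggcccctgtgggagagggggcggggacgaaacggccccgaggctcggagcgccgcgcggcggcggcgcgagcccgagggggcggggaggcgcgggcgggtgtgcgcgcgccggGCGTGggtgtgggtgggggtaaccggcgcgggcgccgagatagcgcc
PLIN2: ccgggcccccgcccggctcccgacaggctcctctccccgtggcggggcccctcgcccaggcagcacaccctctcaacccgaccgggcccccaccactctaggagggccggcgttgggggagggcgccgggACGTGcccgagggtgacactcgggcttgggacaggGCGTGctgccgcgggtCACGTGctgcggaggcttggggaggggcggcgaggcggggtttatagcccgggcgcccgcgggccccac

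ACGTG or GCGTG occurred 1 time before ELOVL6, 3 times before ELOVL1, 1 time before ELOVL2 and 4 times before PLIN2, where 2 of the 4 are the overlapping strands of a single CACGTG whose first base lies 69 bases before the start. Letters this short are common: 43.2% of the 35116 windows of this length hold them, and so do 31 of the 59 windows of the 34 matched members (52.5%). CACGTG, the E-box that contains ACGTG on both strands, was found before ELOVL4, ELOVL5, LPIN2 and PLIN2. It was in 4 of the 59 member windows (6.78%) and in 6.34% of all windows. Among the matched members, TCACNCCAC, a form of the sterol regulatory element, was found before ACSL1 and PNPLA2. It was in 2 of the 59 member windows (3.39%) and in 0.883% of all windows. All of these letters were searched on either strand. FASN, HSD17B12, FABP5, DGAT1, DGAT2, HILPDA and MGLL had no window, so neither these letters nor those below were looked for there. TATAAA was found before PLIN2, ACADVL and CD36, in 4 of the 59 member windows (6.78%), and in 10.7% of all windows. Before PLIN2 it lies on the opposite strand and reads TTTATA in the run above. CCAAT was found before 17 of the 34 matched members, ELOVL1 among them. By window, it was in 21 of the 59 member windows (35.6%) and in 32.0% of all windows. These matches describe the letters in the windows searched and no binding was measured.

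Desaturase genes divided. SCD, the main stearoyl-CoA desaturase, read 3358, 3435 and 3565 on the shERCC6L arrays, against 3169, 3241 and 3257 on the shNC arrays. The groups did not overlap, yet the log2 fold change of 0.10 ± 0.04 (SE) missed the threshold (limma adjusted p = 0.067). All 4 SCD probe sets had values of 0.10 to 0.12, of which 2 passed, and with probe sets averaged SCD passed at 0.11 (limma adjusted p = 0.011; range over its alternatives 0.011 to 0.19).

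SCD5, the second human stearoyl-CoA desaturase, was lower. Its brightest probe set fell by 0.13 (limma adjusted p = 0.022), averaging 154 ± 5.29 in shERCC6L and 170.5 ± 3.74 in shNC. Of its 5 probe sets 3 were called lower, the others at -0.43 and -0.30, and 0 higher. The call on the brightest ended in 5 of 16 alternatives, namely with the unmoderated linear model and without shERCC6L replicate 2 or 3 or shNC replicate 1 or 2 (log2 fold changes of -0.13, -0.11, -0.12 and -0.13). FADS1, a front-end desaturase that completes arachidonate, was higher on all 3 of its probe sets, with mean signals of 999 ± 8.8 in shERCC6L and 875 ± 23.5 in shNC (log2 fold change 0.19, limma adjusted p = 0.0026). FADS2, which acts before it in the same route, and FADS3 had values of -0.09 and -0.05 and did not pass.

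Activation and uptake genes gave no call among the 4 measured, with 0 at an unadjusted p under 0.05 by limma on their brightest probe sets. Over all genes 31.6% were called. ACSL1, a long-chain acyl-CoA synthetase, averaged 330 ± 29 in shERCC6L and 325 ± 3.27 in shNC. FABP5, a cytosolic fatty acid carrier, averaged 1036 ± 99.3 in shERCC6L and 945 ± 84 in shNC, with a 95% interval of -0.04 to 0.30 on the log2 scale and values of 0.05 without shERCC6L replicate 3 and 0.20 without shNC replicate 2. CD36, a fatty acid translocase, was dim, with signals of 7.77 to 8.37 in shERCC6L and 7.70 to 10.4 in shNC, and the groups overlapped. ACSL5 had a value of -0.14 (limma adjusted p = 0.15) on its brightest of 4 probe sets, and its value depended on the arrays and probe sets used. Without shNC replicate 3 it passed at -0.20 (limma adjusted p = 0.043), whereas without shNC replicate 2 it was -0.06 (0.41), with a pseudocount of 64 it was -0.08 (0.22) and with probe sets averaged it was 0.00 (0.99).

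In glycerolipid synthesis 2 of 6 genes were higher and 1 lower, against 18.2% and 13.4% of all genes. All 6 lay at or above the median level, where 36.3% of genes were higher and 22.0% lower. LPIN1, a phosphatidate phosphatase that makes diacylglycerol, read 390.1, 390.6 and 418 on the shERCC6L arrays, against 478, 483 and 484 on the shNC arrays. The groups were far apart, and LPIN1 fell by 0.26 on the log2 scale (SE 0.04; limma adjusted p = 0.00067), with all 3 probe sets called lower and a range of -0.30 to -0.23 over the alternatives. Its relative LPIN2 went the other way, with means of 280 ± 11.3 in shERCC6L and 244 ± 17.3 in shNC (log2 fold change 0.18, limma adjusted p = 0.026). That rise lost its call in 7 of 16 alternatives, among them quantile normalization (0.15), array weights (0.15) and those without shERCC6L replicate 1 (0.16) or 3 (0.18) or shNC replicate 1 (0.19) or 2 (0.13).

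GPAM, the mitochondrial acyltransferase of the entry step, averaged 157 ± 3.78 in shERCC6L and 130 ± 3.73 in shNC and was higher (log2 fold change 0.24, limma adjusted p = 0.00077). The rise was on 2 of its 4 probe sets, and with probe sets averaged the value was 0.12, still past the threshold. AGPAT2, which adds the next acyl chain, had a value of -0.06 and did not pass.

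Neither of the enzymes that finish triglyceride passed. DGAT1 read 218, 224 and 209 on the shERCC6L arrays, against 235, 224 and 232 on the shNC arrays (log2 fold change -0.08 ± 0.04, SE; limma adjusted p = 0.14). Its groups did not overlap, though one shERCC6L array nearly met the lowest shNC array, and with probe sets averaged the value was -0.01. DGAT2 read 183, 167 and 178 on the shERCC6L arrays, against 185, 149 and 153 on the shNC arrays, at 0.11 ± 0.07 (SE; limma adjusted p = 0.29). The DGAT2 arrays overlapped, and its 95% interval ran from -0.05 to 0.27. Without shNC replicate 1, which gave the highest DGAT2 signal, the value was 0.20 and passed (limma adjusted p = 0.014; range over its alternatives 0.014 to 0.62), while without shNC replicate 2, which gave the lowest, it was 0.06 and did not pass (0.62). It also passed, at 0.11, with probe sets averaged.

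Of 7 droplet and lipolysis genes, 2 were lower, 1 was higher and 4 did not pass. Over all genes 13.4% were lower and 18.2% higher, and at or above the median level 22.0% and 36.3%. PLIN2, the droplet coat protein that is abundant in clear cell renal carcinoma, read 1495, 1515 and 1463 on the shERCC6L arrays, against 1861, 1794 and 1874 on the shNC arrays. It fell by 0.30 on the log2 scale (SE 0.03; limma adjusted p = 0.00018), with both probe sets lower and a range of -0.34 to -0.29 over the alternatives. PLIN3, a coat protein of small droplets, averaged 1360.1 ± 14.9 in shERCC6L and 1244 ± 25 in shNC and was slightly higher (log2 fold change 0.13, limma adjusted p = 0.017). Quantile normalization (0.10) and leaving out shERCC6L replicate 2 (0.12) or shNC replicate 3 (0.11) ended that call.

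HILPDA, a hypoxia-induced droplet protein that inhibits the triglyceride lipase PNPLA2, read 470.3, 489 and 476 on the shERCC6L arrays, against 487, 519 and 501 on the shNC arrays, at -0.07 ± 0.04 (SE; limma adjusted p = 0.22). One shERCC6L array reached into the shNC range. Its second probe set fell by 0.13 and passed, as did the average of both, at -0.10 (adjusted p = 0.019; range over its alternatives 0.019 to 0.48), while the value was -0.04 without shNC replicate 2. PNPLA2 itself, which starts triglyceride breakdown, read 132, 130.1 and 111 on the shERCC6L arrays, against 152, 136 and 127 on the shNC arrays, at -0.14 ± 0.07 (SE; limma adjusted p = 0.19). Its groups overlapped, and the value was -0.07 without shERCC6L replicate 3 and -0.08 without shNC replicate 1 (limma adjusted p = 0.51 in both). It passed at -0.12 with probe sets averaged (adjusted p = 0.024) and at -0.14 with the replicate number as a block (adjusted p = 0.038), over a range of 0.024 to 0.51.

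MGLL, which releases the last acyl chain from monoacylglycerol, read 1090.1, 1152 and 1095 on the shERCC6L arrays, against 1312, 1313 and 1344 on the shNC arrays. It fell by 0.25 (SE 0.04; limma adjusted p = 0.0007) and 5 of its 6 probe sets were called lower, by 0.15 to 0.33. ABHD5, the coactivator of PNPLA2, did not pass on its brightest probe set (0.12, limma adjusted p = 0.06), though it passed in 5 of 16 alternatives (adjusted p 0.0016 to 0.20), the replicate block among them (0.048), while 2 of its 6 probe sets rose and all 6 lay above 0. The larger of those rises was on a probe set that read 76.3, 80.5 and 78.4 in shERCC6L, against 54.9, 58.3 and 56.1 in shNC, a log2 fold change of 0.38. LIPE, hormone-sensitive lipase, had a value of -0.08 and did not pass, except with probe sets averaged (-0.09, adjusted p = 0.042; range 0.042 to 0.43).

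**Figure D4:**
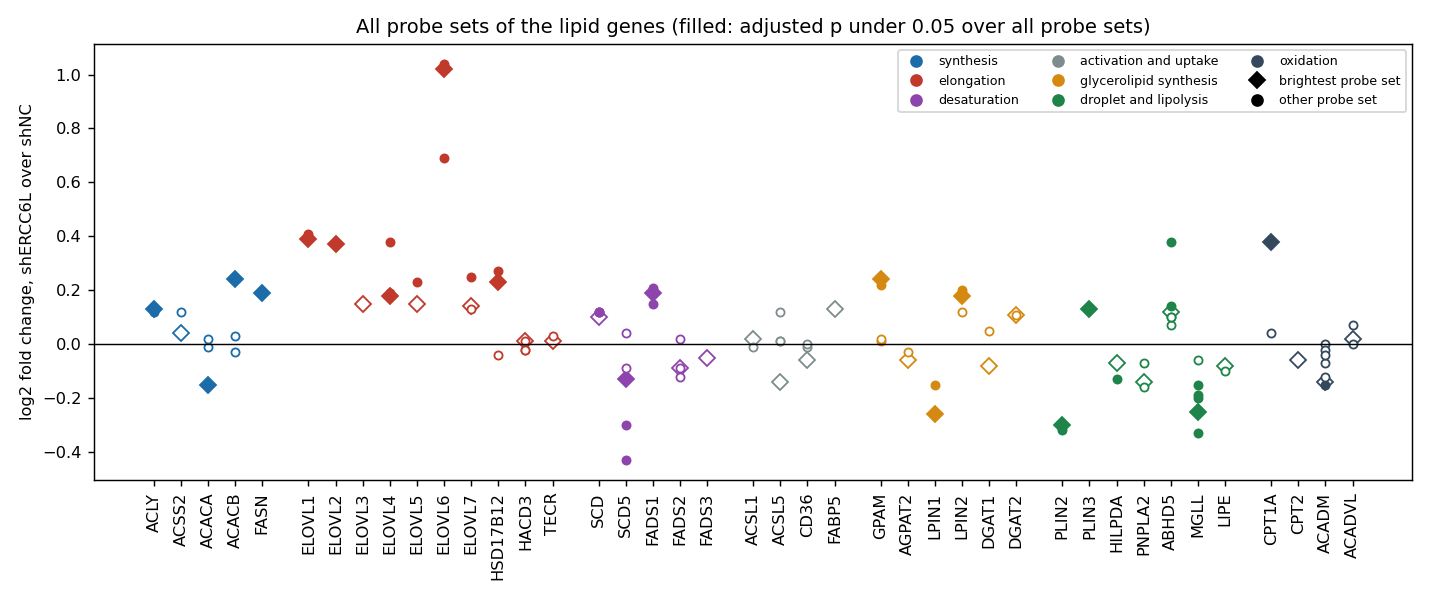
Log2 fold change, shERCC6L over shNC (y axis), of all 113 probe sets of the lipid genes, by gene and role. Diamonds are each gene's brightest probe set, circles the others, and filled symbols passed an adjusted p of 0.05 over all 44988 probe sets. The 15 elongase probe sets all lie above 0, while those of LPIN1, PLIN2 and MGLL all lie below it.

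Across the 113 probe sets, 30 were called higher and 16 lower (40.7%), against 29.0% of all probe sets. Signal level was not matched in that comparison, and brighter probe sets were called more often. At or above the median level of genes, 31.7% of probe sets were called higher, against 17.0% of all probe sets. Of the 34 members with several probe sets, none had calls in both directions, by limma over all probe sets. Another 6 members, ELOVL5, ELOVL7, SCD, HILPDA, ABHD5 and ACADM, had a called probe set other than their brightest.

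Fatty acid oxidation was represented by 4 genes, of which 1 was higher, against 18.2% of all genes. CPT1A, the carnitine palmitoyltransferase that controls entry of acyl chains into mitochondria, read 60.6, 61.6 and 62.7 on the shERCC6L arrays, against 40.4, 44.5 and 46.8 on the shNC arrays (log2 fold change 0.38 ± 0.04, SE; limma adjusted p = 0.0002). The groups were apart, but the signal was below the median level of all genes, and the second, dimmer CPT1A probe set was at 0.04 and did not pass. Averaging both probe sets gave 0.21 and a pseudocount of 64 gave 0.22, each past the threshold. CPT2, which acts inside the mitochondrion, and the very-long-chain dehydrogenase gene ACADVL had values of -0.06 and 0.02 and did not pass. The medium-chain dehydrogenase gene ACADM had -0.14 (limma adjusted p = 0.08) and passed as lower on 1 of its 7 probe sets.

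Beyond the members, 120 further genes of lipid metabolism were listed by function, and 111 were measured. Of these 26 were higher and 14 lower, or 36.0%, near the 31.6% of all genes. Their median log2 fold change was -0.015, beside -0.011 for all genes. Over all genes 18.2% were higher and 13.4% lower. At or above the median level lay 72 of the 111. Adjusted at that level, 23 of the 72 were higher and 17 lower, against 36.3% and 22.0% of all genes there. The counts by role that follow were not matched for level. By role, 5 of 13 glycerolipid genes were higher and 1 lower, 6 and 2 of 21 droplet and lipolysis genes, 3 and 4 of 12 synthesis genes, 4 and 1 of 17 activation and uptake genes, 4 and 3 of 26 oxidation genes, and 4 and 3 of 22 regulators.

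The largest rises in that list were in genes that cut ester bonds, move lipid or add acyl chains. NCEH1, a cholesteryl ester hydrolase, read 2094, 2068 and 2041 on the shERCC6L arrays, against 1122, 1146 and 1195 on the shNC arrays (log2 fold change 0.83 ± 0.04, SE; limma adjusted p = 6.1e-07). All 3 NCEH1 probe sets rose. ABHD6, a monoacylglycerol lipase like MGLL, was higher by 0.50, the lysolipid transporter gene MFSD2A by 0.48 and the lysophosphatidate acyltransferase gene AGPAT1 by 0.40. ABHD6 and MFSD2A lay below the median level, and 2 of 4 AGPAT1 probe sets were called.

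The largest falls were in RXRA, at -0.60, DECR2, at -0.38, FABP6, at -0.29, and MBTPS1, at -0.27. RXRA, the nuclear receptor that pairs with PPAR and LXR proteins, averaged 218 ± 11.1 in shERCC6L and 338 ± 15.1 in shNC (limma adjusted p = 2e-05), and its second probe set did not pass. MBTPS1 encodes a protease that releases SREBP factors from the membrane. The gene of the other protease of that step, MBTPS2, rose by 0.36, so the pair moved in opposite directions. Transcripts of SREBP themselves did not pass, with SREBF1 at 0.02 and SREBF2 at -0.05, nor did those of the lipogenic factors MLXIPL, at -0.10, and PPARG, at -0.08. Other listed regulators did pass, among them MLX, higher at 0.29 with 5 of its 6 probe sets called, and MID1IP1, lower at -0.17.

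Markers of renal epithelium and carcinoma were present, with 8 of 10 measured genes at or above the median level, PAX8, KRT8, KRT18 and VIM among them, while the proximal tubule receptors LRP2 and CUBN were below it. Of this list 3 were higher and 2 lower, against 18.2% higher and 13.4% lower among all genes. The falls were NNMT, at -0.66, and CDH6, at -0.50, and the rises LHX1, at 0.42, PAX8, at 0.34, and KRT18, at 0.13. Summed signal of the list was 22000 to 22686 in shERCC6L and 22985 to 23331 in shNC. VIM made up most of it, averaging 14885 in shERCC6L and 14926 in shNC. No adipocyte, leukocyte, endothelial or fibroblast marker measured reached the median level, and SERPINA1 alone of 6 hepatocyte markers did. Summed signals of the 6 adipocyte markers were 268 to 296 in shERCC6L and 278 to 296 in shNC, with FABP4 called higher. Those of the 7 fibroblast markers were 185 to 189 in shERCC6L and 214 to 221 in shNC, with COL1A1 and PDGFRA called lower, and their part in the results was not tested.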

How the data were processed

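The values are linear probe set intensities from single-channel Affymetrix arrays, 1 per probe set and array, which the authors made with Affymetrix Expression Console, per the submitters' processing notes; how it corrected background, normalized and summarized the probes, and in which version, is not given in the sources used here. These deposited intensities were on a common scale, with array medians of 60.04 to 61.56, and hold no detection calls. The number of arrays, 3 per group, limits the precision. Of 49395 probe sets, 44988 carried a single gene symbol in the platform annotation held by GEO, 1832 carried several, 2473 had none listed and 102 were controls. The brightest probe set by mean over the 6 arrays stood for each gene.

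Values were taken as log2(signal + 16) and tested 2-sided with lmFit and eBayes of limma 3.58.1, run in R 4.3.3 with no block, with Benjamini-Hochberg adjustment over all genes, or over all probe sets where those are counted. In data simulated with independent noise, 200 of 18132 genes were changed. The test recovered 70% of those given a log2 change of 0.25, 94% at 0.5 and 100% at 1. In the real data 5733 genes passed, so these rates need not hold there. Values on every array are given for 11 genes of the core route (ACLY, ACACA, FASN, SCD, ELOVL6, DGAT1, DGAT2, PLIN2, HILPDA, PNPLA2, CPT1A) and for called members with an absolute log2 fold change of at least 0.25, and among the further lipid genes the 4 largest called rises and falls are named. MGLL, just under that limit before rounding, and others given in more detail were chosen after their values were seen. Members, lists and tests were chosen with earlier results of these data known. Same-numbered arrays of the groups did not deviate together (correlations of 0.24, -0.14 and -0.01), so they were not treated as pairs. Alternatives were averaged probe sets, quantile normalization, median centring, other pseudocounts, a filter on dim genes, an intensity trend, array weights, a replicate block, no moderation and leaving out each array. The labels name no batch.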

Additional observations from a re-analysis of the deposited data

How the results depend on the processing

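The counts of members called moved by less than 1.5 times in all alternatives, from 9 to 17 higher and from 4 to 7 lower. Without 1 array the counts were 9 to 13 higher and 4 to 5 lower among members, 23 to 28 higher and 12 to 15 lower among their probe sets, 4694 to 5379 over all genes, and 22 to 26 higher and 8 to 15 lower among the further lipid genes, whose falls numbered 9 without shERCC6L replicate 2 or shNC replicate 2 and 8 without shNC replicate 3. Those falls were also 9 with median centring, 9 with a pseudocount of 1 and 8 without moderation, against 14, and median centring gave 75.0% of their calls as higher, against 65.0%. With a replicate block 14 members were higher and 6 lower, and 5619 genes passed. Of the calls on the 14 members named by rule, that block changed only PNPLA2, and not every array correlated best with its own number. No log2 fold change of these 14 changed sign, and 204 of their 223 values kept their side of the threshold, while 10 lost a call (ACLY, ACACA, FASN) and 9 gained one (SCD, DGAT2, HILPDA, PNPLA2). The cause of these shifts was not tested. The table holds no detection calls, so how far dim genes such as CD36, ELOVL3 and ELOVL4 exceed background is unknown.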

Other observations

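INSIG1, which holds SREBP factors in the endoplasmic reticulum and is itself induced by them, gave values that depend on the probe set. Its brightest probe set read 1164, 1136 and 1202 on the shERCC6L arrays, against 1237, 1329 and 1244 on the shNC arrays, at -0.12 on the log2 scale, and did not pass. The next read 1080, 1101 and 1126 on the shERCC6L arrays, against 898, 915 and 894 on the shNC arrays, and was higher by 0.28, and the dimmest was higher by 0.16, both past limma's threshold over all probe sets.

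A further probe set is annotated to FABP5 together with its pseudogene FABP5P2 and was therefore left out of the counts. It read 2055, 2177 and 2135 on the shERCC6L arrays, against 1674, 1762 and 1678 on the shNC arrays, a difference of 0.31 on the log2 scale with no overlap, while the probe set annotated to FABP5 alone did not pass. LDAH, a droplet-associated hydrolase, was higher by 0.37, with all 6 of its probe sets called, and PRKAA2, a catalytic subunit of the AMP-activated kinase that phosphorylates both acetyl-CoA carboxylases, was higher by 0.38 at a signal below the median level, with 3 of its 4 probe sets called.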
